A study of Mus musculus with 6 samples.

Results

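The genes described here carry metal ions across membranes, bind them or store them. They are the 38 genes of the deposited table, out of 23396, that belong by name to the solute carrier families Slc11, Slc30, Slc31, Slc39, Slc40 and Slc41 (32 genes), or that are the metallothioneins Mt1 and Mt2, the metal-sensing transcription factor Mtf1, the transferrin receptor Tfrc or the ferritin subunits Fth1 and Ftl1 (6 genes). The choice was by name and used no measured value, though it was made with earlier results of these data known. The RNA came from right kidneys of 6-month-old males, depleted of ribosomal RNA before sequencing. Knockout mice (3 libraries) were homozygous for the Far2 allele of the strain C57BL/6N-Far2tm2a(KOMP)Wtsi/2J, and wild-type mice (3 libraries) were C57BL/6N. Far2 encodes a fatty acyl-CoA reductase, which makes fatty alcohols. A whole kidney holds many cell types, and no treatment is named in the labels.

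Zinc leaves the cytosol through Slc30 (ZnT) proteins, toward the outside or into organelles and vesicles, and enters it through Slc39 (ZIP) proteins, some of which also carry iron or manganese. Zinc that binds Mtf1 sends it to metal response elements in the promoters of Mt1, Mt2 and Slc30a1, so that transcripts of zinc binding and zinc export increase together when free zinc increases. Iron is handled differently: iron regulatory proteins bind a stem-loop in the RNA, which blocks translation of ferritin and ferroportin messages and stabilises the transferrin receptor message when iron is scarce. Metallothionein genes also respond to glucocorticoids, and the proximal tubule of the kidney takes up filtered metal ions.

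The promoters of 3 zinc-responsive members are shown because the letters of the metal response element core lie in them. The core was searched on both strands as TGCACNC or TGCGCNC, and matches are in capitals. The 250 bases before the RefSeq start (GRCm38.p6, plus strand) are chr8:94178839-94179088 for Mt1, chr8:94172368-94172617 for Mt2 and chr1:191906531-191906780 for Slc30a1. A further stretch, chr8:94179091-94179115, lies just after the start of Mt1 and holds 2 more matches.
Mt1 before the start: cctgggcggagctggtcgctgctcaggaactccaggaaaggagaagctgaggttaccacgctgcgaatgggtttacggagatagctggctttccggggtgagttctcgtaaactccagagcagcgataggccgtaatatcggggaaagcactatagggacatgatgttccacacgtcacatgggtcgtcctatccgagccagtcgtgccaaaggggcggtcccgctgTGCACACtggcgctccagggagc
Mt1 after the start: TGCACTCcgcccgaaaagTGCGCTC
Mt2 before the start: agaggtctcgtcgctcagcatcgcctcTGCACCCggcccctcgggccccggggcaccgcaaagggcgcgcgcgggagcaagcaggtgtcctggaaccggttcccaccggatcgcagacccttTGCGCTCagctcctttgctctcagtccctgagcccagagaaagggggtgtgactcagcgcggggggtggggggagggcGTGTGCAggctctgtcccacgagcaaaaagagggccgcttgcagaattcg
Slc30a1 before the start: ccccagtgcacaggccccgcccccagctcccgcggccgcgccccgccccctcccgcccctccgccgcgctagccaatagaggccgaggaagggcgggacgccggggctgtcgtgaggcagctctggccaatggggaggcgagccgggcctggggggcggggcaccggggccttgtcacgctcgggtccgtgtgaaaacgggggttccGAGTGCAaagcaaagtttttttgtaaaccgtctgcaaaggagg

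Windows of 250 bases before to 50 after the start held 3 matches for Mt1, 4 for Mt2 and 2 for Slc30a1, of which 1 each for Mt2 and Slc30a1 lies after the start and is not printed. Of all 32851 RefSeq promoter windows, 25.7% held at least 1 match, 7.11% at least 2, 1.97% at least 3 and 0.517% at least 4. A window was found for 32 of the 38 members, and 18 of these had at least 1 match in a window. These members had 39 windows, so this count by member cannot be set directly against the shares by window. Slc30a4 and Slc30a10 had 3 each, and Slc30a2 and Tfrc had 2 each. Those of Tfrc overlapped, and so did 2 of those of Slc30a10. A match describes the letters and is not a binding site.

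Stem-loops of the iron-responsive kind were searched in GENCODE transcripts (GRCm38) as a C, 5 bases, the 6-base loop CAGTGN and 5 bases that pair with the first 5 (G with U allowed). The unpaired C and the loop are in capitals, and each site has 29 bases, written in the strand of the gene. A match lay in the 5′ UTR of Fth1 (chr19:9982732-9982760, plus strand), Ftl1 (chr7:45459779-45459807, minus strand) and Slc40a1 (chr1:45925465-45925493, minus strand). Tfrc had 4 matches in its 3′ UTR on the plus strand, at chr16:32631219-32631247, chr16:32631598-32631626, chr16:32631663-32631691 and chr16:32631710-32631738. These are shown because the opposite positions in the message go with the opposite responses to iron given above.
Fth1: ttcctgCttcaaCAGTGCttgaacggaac
Ftl1: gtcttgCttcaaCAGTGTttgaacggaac
Slc40a1: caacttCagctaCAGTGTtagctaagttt
Tfrc site A: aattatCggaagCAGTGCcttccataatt
Tfrc site B: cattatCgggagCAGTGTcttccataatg
Tfrc site C: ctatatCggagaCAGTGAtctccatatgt
Tfrc site D: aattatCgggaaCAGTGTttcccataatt

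The loop of each of the 7 sites begins CAGTG. Of 21901 protein-coding genes searched, 294 (1.34%) held a match in any transcript, among them these 4 members. A stem with a mismatch in the paired bases was not searched for. A member without a match, such as Slc11a2, is therefore not shown to lack a stem-loop of this kind.

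The libraries held 15261362 to 20631158 fragments assigned to genes. Far2 itself had 28, 19 and 31 fragments in knockout and 40, 40 and 22 in wild type, and its log2 fold change was −0.23 ± 0.24 (SE; edgeR, adjusted p = 0.781). Counts are per gene and not per exon, so the genotypes rest on the labels alone. Libraries are called 0, 1 and 2 within a group, the numbers of the deposited table. Wild-type library 0 stood apart: its summed level of 8 tubular injury markers was 1321 CPM (fragment counts scaled to a common library size after TMM), against 626.3 to 757.6 CPM in the knockout libraries and 644.8 and 659 CPM in wild-type libraries 1 and 2. Its 11 macrophage markers summed to 289 CPM, against 120.0 to 159 CPM in knockout and 148 and 142 CPM in wild-type libraries 1 and 2. Markers of the proximal tubule, which summed to 20680 to 21550 CPM in knockout and 18800 to 22710 CPM in wild type, matched the labelled organ. Markers of adipose tissue summed to 40.9 to 63.7 CPM in knockout and 28.8 to 38.2 CPM in wild type, with no overlap. Most of each sum was Fabp4, at 39.97, 37.49 and 48.41 CPM in knockout and 34.98, 27.51 and 30.04 CPM in wild type. For each of the other adipose markers the groups overlapped. The part of these markers in the results was not tested.

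Metal handling genes differed little between the genotypes. Of the 38 members, 32 had enough fragments to be tested, and 0 of these passed edgeR's quasi-likelihood test (adjusted p under 0.05, by Benjamini and Hochberg), as did 0 of all 14354 genes tested (0%). DESeq2 called 0 members and 13 genes in all (0.0906%). At an unadjusted p under 0.05 stood 2 members, Slc30a1 and Slc39a5, both higher in knockout, which is 6.25% of the tested members against 8.31% of all genes. In CPM, the same 2 members were the ones whose knockout libraries all lay above all wild-type libraries, against 7.12% of all genes, and 0 lay below, against 6.96%. In the deposited FPKM this held for 1 member, Slc30a1 (6.78% of all genes lay above and 6.52% below), a comparison added after the data were seen. Of the tested members, 22 had a log2 fold change above 0 (68.75%, against 48.3% of all genes), or 23 with RLE and 19 with upper-quartile scaling. Their median was 0.03, beside −0.0066 for all genes, and the median size of the change without its sign was 0.078, beside 0.10 (log2 scale).

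The precision was enough to bound most of these differences. For 30 of the 32 tested members (93.75%, against 74% of all genes), the 95% confidence interval of the difference lay within 1.5-fold in both directions. The 2 exceptions were Slc11a1 and Slc41a3, which had few fragments. For 18 members the log2 fold change was within 0.1 of 0. The standard error ran from 0.059 to 0.34 (log2 scale). The smallest adjusted p of a member was 0.599.

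**Figure D1:**
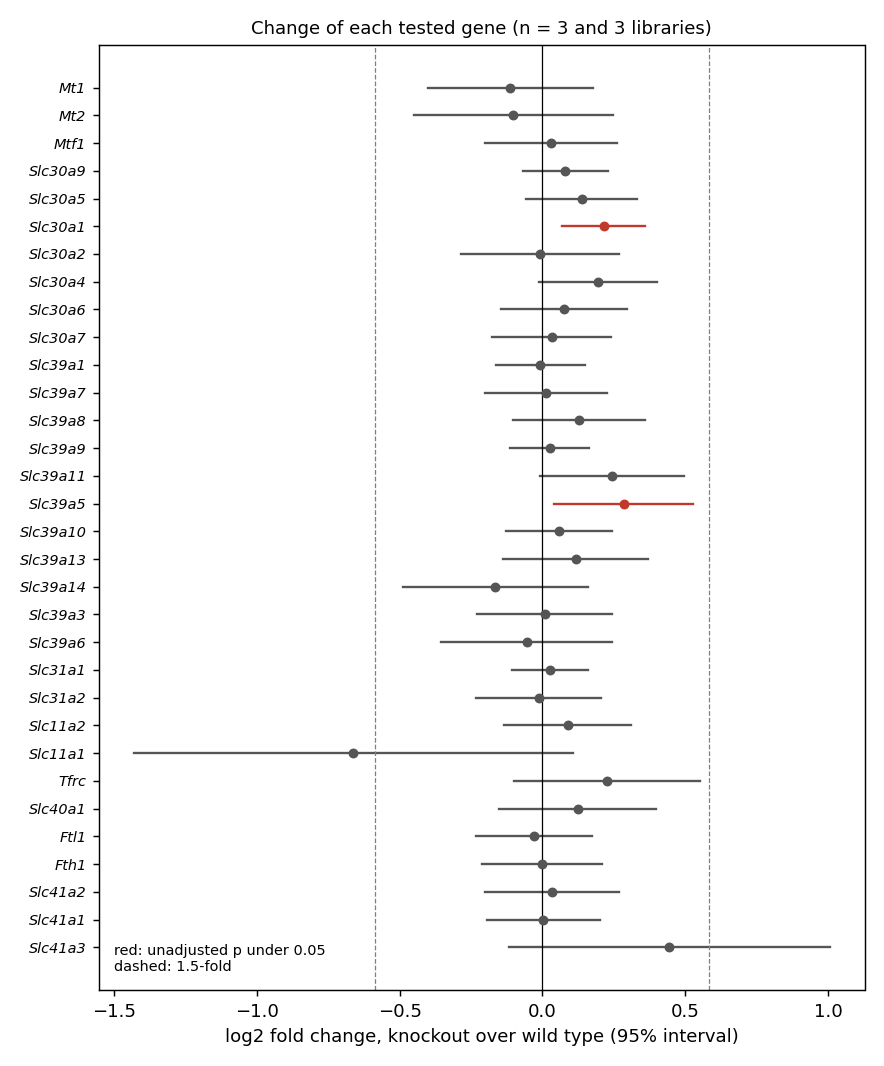
Log2 ratio of knockout to wild type for the 32 tested members, with points for edgeR's estimates and bars for 95% confidence intervals. The intervals of Slc30a1 and Slc39a5 lie above 0, and those of Slc11a1 and Slc41a3 are the widest.

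The levels spanned several orders of magnitude. In FPKM, a unit per length and depth that, unlike CPM, allows genes of unequal length to be compared, ferritin light chain Ftl1 (mean 2419 FPKM over 6 libraries) and heavy chain Fth1 (1615 FPKM) led, followed by Mt1 (151 FPKM). Then came Slc30a9 (53.2 FPKM), Slc31a1 (45.4 FPKM) and Mt2 (43.6 FPKM). The mean was over 100 FPKM for 3 members, over 10 FPKM for 21 and over 1 FPKM for 31. Slc11a1 (0.92 FPKM) was the lowest of the tested members. Ferritin genes have many processed copies in the genome that can share reads with them, so their counts are less certain than the others.

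**Figure D2:**
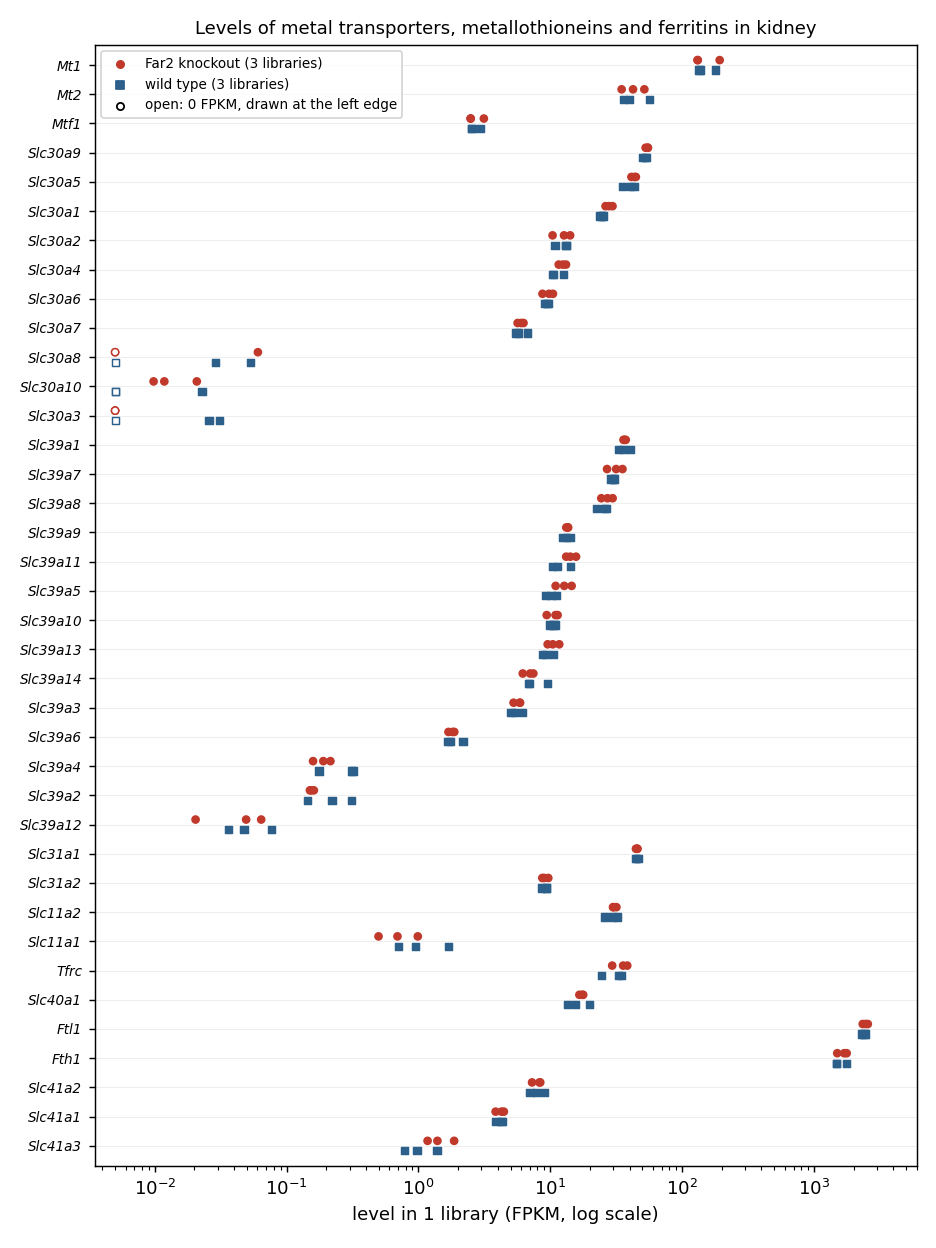
Level of each of the 38 members in each library (FPKM, log scale), knockout as circles above wild type as squares. The ferritins lie at the far right, followed by Mt1, and the 6 transporters that were not tested lie at the far left.

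Metallothioneins, small cysteine-rich proteins that bind zinc and copper, did not separate by genotype. Mt1 stood at 66.8, 47.4 and 50.4 CPM in knockout, against 66.2, 57.4 and 54.2 CPM in wild type. The groups overlapped, with library 0 the highest of each. The fitted log2 fold change of Mt1 was −0.11 ± 0.13 (SE; 95% confidence interval −0.40 to 0.18; edgeR's quasi-likelihood test, adjusted p = 0.807). In the deposited FPKM the group means were nearly equal, 152 ± 35.5 FPKM in knockout and 151 ± 24.9 FPKM in wild type (SD, n = 3 each). Mt2, encoded next to Mt1 on chromosome 8, stood at 16.3, 11.8 and 14.9 CPM in knockout, against 18.8, 13.1 and 14.4 CPM in wild type. Again library 0 was the highest in each group and the groups overlapped (log2 fold change −0.10 ± 0.16, 95% confidence interval −0.45 to 0.25, edgeR adjusted p = 0.853). Without wild-type library 0 the log2 fold change of Mt2 was 0.068. That of Mt1 ranged from −0.28 without knockout library 0 (edgeR unadjusted p = 0.0251, adjusted p = 0.561) to −0.019 without knockout library 1, and was −0.024 without wild-type library 0. Mt1 exceeded Mt2 in FPKM by 3.08- to 3.82-fold in every library.

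Mtf1, the zinc sensor, stood at 24.8, 20.1 and 19.9 CPM in knockout, against 22.6, 20.1 and 20.9 CPM in wild type. One knockout library was the highest of all 6, and the rest were close together (log2 fold change 0.03 ± 0.10). The deposited locus of Mtf1 overlaps that of another gene, 1110065P20Rik, so its count is less certain. Across the 6 libraries, Mt1 and Mt2 gave Pearson's r of 0.81 (exact permutation p = 0.05, adjusted p = 0.20 over 4 relations) and Spearman's rho of 0.71 (exact permutation p = 0.136, adjusted p = 0.483). Without the 2 libraries numbered 0, the farthest from the median of Mt1, r was 0.35, so the relation rests on those 2 libraries. Both metallothionein levels were computed from the same libraries and depths.

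**Figure D3:**
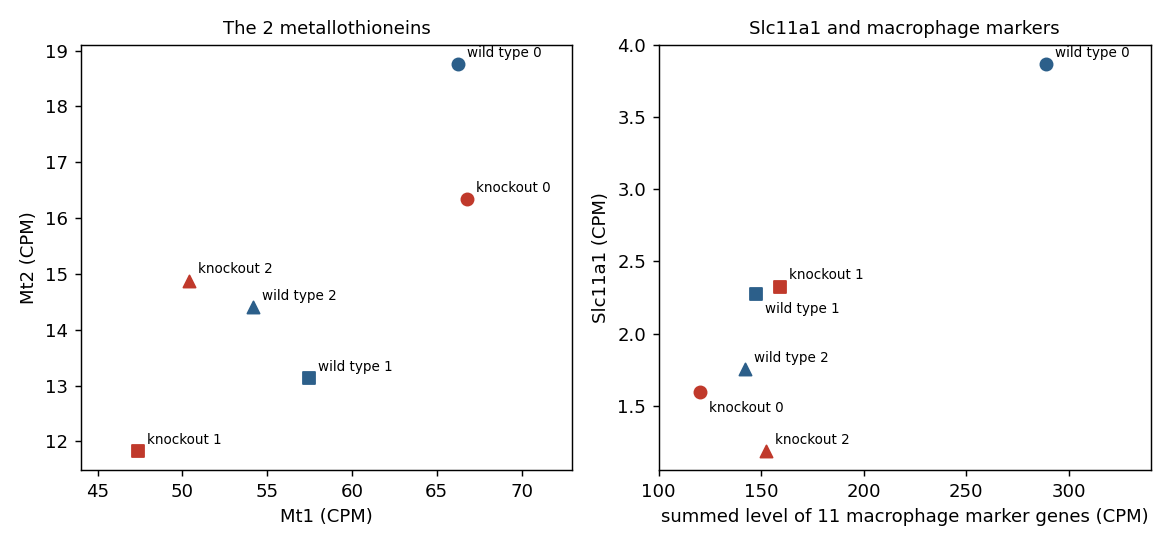
Left, Mt2 against Mt1 in each library (CPM). Right, Slc11a1 against the summed level of 11 macrophage markers (CPM). Red is knockout and blue is wild type, and the numbers are those of the deposited table. Wild-type library 0 is at the top of both panels.

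Because metallothionein genes respond to glucocorticoids, a list of 8 glucocorticoid target genes was set beside them. In that list 0 genes passed after adjustment, while 5 stood at an unadjusted p under 0.05, all 5 lower in knockout, against 5.14% of all genes on that side. The list's median log2 fold change was −0.31. The smallest unadjusted p belonged to Tsc22d3, an anti-inflammatory leucine zipper protein, at 42.8, 40.5 and 39.6 CPM in knockout and 41.7, 61.2 and 65.2 CPM in wild type. In wild type, libraries 1 and 2 were the high ones, unlike Mt1 and Mt2, which were highest in library 0. The list was chosen with earlier results of these data known, so its count beside that share is a description and not a test. Whether this list bears on the metallothionein levels was not tested.

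Zinc exporters of the Slc30 family included the member with the smallest p. Slc30a1 (ZnT1), the exporter of the plasma membrane and itself a target of Mtf1, stood at 123, 121 and 110.2 CPM in knockout, against 103, 99.7 and 103 CPM in wild type. All knockout libraries lay above all wild-type libraries. The means were 118 ± 6.92 CPM in knockout, against 102 ± 1.84 CPM in wild type (SD, n = 3 each), a log2 fold change of 0.21 ± 0.065 (SE; 95% confidence interval 0.070 to 0.36). The unadjusted p was 0.00823 and the adjusted p was 0.599 (edgeR's quasi-likelihood test), so the difference did not pass the correction over all genes. Leaving out any 1 library kept the log2 fold change between 0.19 and 0.27. The deposited locus of Slc30a1, which runs from 191894072 to 191913247 on chromosome 1 (mm10), overlaps that of 1700034H15Rik. Mt1 and Mt2 are the other Mtf1 targets whose promoters are printed above. Their log2 fold changes were −0.11 ± 0.13 and −0.10 ± 0.16, with 95% confidence intervals that include 0. Across libraries the correlation of Mt1 with Slc30a1 was r = −0.13 (exact permutation p = 0.801, adjusted p = 0.986). Spearman's rho was −0.086 (exact permutation p = 0.919, adjusted p = 0.919). On log2(FPKM + 1), r was 0.45. Whether Mtf1 or zinc bears on these levels was not tested.

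Slc30a4 (ZnT4), which loads vesicles with zinc, stood at 59.4, 64.2 and 54.8 CPM in knockout, against 57.8, 47.7 and 50.3 CPM in wild type. The groups overlapped through wild-type library 0, and the log2 fold change was 0.20 ± 0.092 (edgeR unadjusted p = 0.0610, adjusted p = 0.603). Slc30a5 (ZnT5), which carries zinc into the early secretory pathway, stood at 113.5, 126 and 119 CPM in knockout, against 115, 94.9 and 116 CPM in wild type. Here 1 wild-type library was lower than the rest, and the log2 fold change was 0.14 ± 0.087 (edgeR adjusted p = 0.647), or 0.052 without that library. Slc30a9, the most abundant of the family, stood at 168, 172 and 161 CPM in knockout, against 157, 149 and 167 CPM in wild type. The groups overlapped, with a log2 fold change of 0.08 ± 0.067.

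In FPKM, Slc30a9 made up 33.1% of the summed level of the family, Slc30a5 25.8% and Slc30a1 16.4%. Of the 7 tested Slc30 genes, 6 had a log2 fold change above 0 (48.3% of all genes did) and 1 below, with a median of 0.081. Slc30a2, which moves zinc into vesicles, gave −0.0095. Slc30a6, the partner of Slc30a5 in the secretory pathway, gave 0.075. Slc30a7, a transporter of the Golgi, gave 0.03. The other 3 had too few fragments to test. Slc30a3, the synaptic vesicle transporter, had 0, 0 and 0 fragments in knockout and 1, 0 and 1 in wild type. Slc30a8, known from insulin granules, had 0, 0 and 2 in knockout and 1, 2 and 0 in wild type. Slc30a10, a manganese exporter, had 2, 1 and 1 in knockout and 0, 0 and 2 in wild type. No difference in these 3 was detectable at this depth, where 3 fragments over a group correspond to 0.0582 CPM (before TMM scaling) in knockout and 0.0534 CPM in wild type, counting error only.

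**Figure D4:**
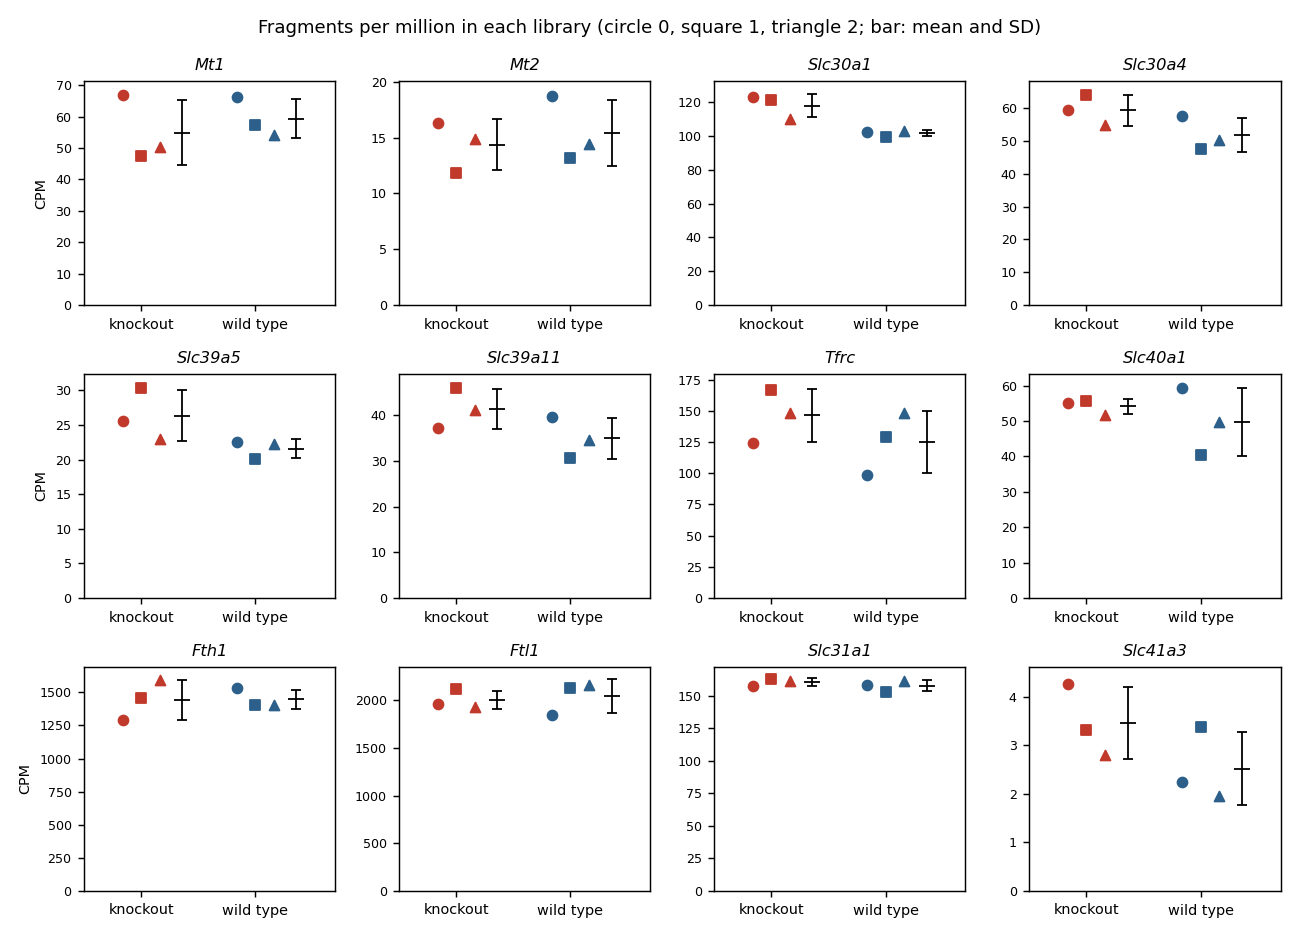
Level in each library of 12 members (CPM, each panel with its own axis), with knockout at the left and wild type at the right; symbols mark the library numbers and bars the mean and SD. Among these panels, Slc30a1 and Slc39a5 are the ones whose knockout points all lie above the wild-type points.

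Among the Slc39 importers, Slc39a5 (ZIP5), a zinc transporter of the basolateral membrane in gut and pancreas, was the member whose groups did not overlap in CPM. Its deposited locus is chromosome 10 from 128395931 to 128401224 (mm10). It stood at 25.6, 30.3 and 23.0 CPM in knockout, against 22.5, 20.1 and 22.2 CPM in wild type. The lowest knockout library was only just above the highest wild-type library, and in the deposited FPKM the groups overlapped, at 12.8, 14.5 and 10.98 FPKM in knockout and 11.1, 9.20 and 10.1 FPKM in wild type. Its mean was 26.3 ± 3.69 CPM in knockout, against 21.6 ± 1.32 CPM in wild type (SD, n = 3 each), and the log2 fold change was 0.28 ± 0.11 (95% confidence interval 0.041 to 0.53, edgeR unadjusted p = 0.0263, adjusted p = 0.599). Without knockout library 1 the log2 fold change was 0.17, the lowest value when 1 library was left out, and the highest was 0.38. Slc39a11 (ZIP11) stood at 37.1, 45.9 and 41.1 CPM in knockout, against 39.5, 30.6 and 34.6 CPM in wild type. Wild-type library 0 lay within the knockout range. This gave a log2 fold change of 0.24 ± 0.11 (95% confidence interval −0.0080 to 0.50, edgeR unadjusted p = 0.0563, adjusted p = 0.603), and without that library it was 0.34 (edgeR unadjusted p = 0.0129, adjusted p = 0.372).

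Of the 11 tested Slc39 genes, 8 had a log2 fold change above 0 (48.3% of all genes did) and 3 below, with a median of 0.025. With upper-quartile scaling Slc39a3 was at −0.0076 and Slc39a7 at −0.0038. The most abundant in FPKM were Slc39a1 (ZIP1, a plasma membrane zinc importer) with 21.9% of the summed level, Slc39a7 (ZIP7, which releases zinc from the endoplasmic reticulum) with 18.3% and Slc39a8 (ZIP8, a carrier of manganese, zinc and iron) with 15.6%. Their log2 fold changes were −0.0078 for Slc39a1, 0.01 for Slc39a7 and 0.13 for Slc39a8, whose deposited locus overlaps that of 4933401H06Rik. Slc39a14 (ZIP14), a carrier of manganese, zinc and iron, gave −0.16 ± 0.14. Its wild-type library 2 was the highest at 48.9 CPM, against 31.5 to 37.1 CPM in knockout and 33.5 and 33.7 CPM in wild-type libraries 0 and 1, and without it the log2 fold change was 0.034. Slc39a3 (0.0086), Slc39a6 (−0.055), Slc39a9 (0.025), Slc39a10 (0.058) and Slc39a13 (0.12) completed the tested importers by their log2 fold changes. Slc39a9, at 66.8 to 71.2 CPM, was among the steadiest: its spread within groups was at the 2.72 percentile of all genes tested.

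The other 3 importers were too low to test. Slc39a4 (ZIP4), the intestinal importer whose loss causes zinc deficiency in people, had 8, 6 and 10 fragments in knockout and 15, 17 and 7 in wild type. Slc39a2 had 6, 5 and 6 in knockout and 13, 10 and 5 in wild type. For both, 1 wild-type library lay within the knockout range. Slc39a12, known from brain, had 3, 2 and 1 in knockout and 4, 2 and 2 in wild type.

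Copper uptake genes differed little between genotypes. Slc31a1 (CTR1), the plasma membrane copper importer, stood at 157, 163 and 162 CPM in knockout, against 158, 153 and 161.5 CPM in wild type. The groups overlapped and the 6 libraries were close together: its spread within groups was at the 1.41 percentile of all genes tested. Its log2 fold change was 0.03 ± 0.059, with a 95% confidence interval of −0.10 to 0.16. Slc31a2 (CTR2), its relative in endosomes and lysosomes, gave −0.013. In a list of 12 copper chaperones and pumps, 0 passed after adjustment and 0 had an unadjusted p under 0.05 (8.31% of all genes did). In that list 10 had a log2 fold change above 0 (48.3% of all genes did), with a median of 0.085. The smallest p in it belonged to Commd1, a protein of copper export, at 37.9, 37.4 and 37.5 CPM in knockout and 33.7, 34.8 and 32.9 CPM in wild type (log2 fold change 0.15 ± 0.071, edgeR unadjusted p = 0.0573, adjusted p = 0.603).

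Iron uptake through transferrin did not separate the groups. Tfrc, the receptor that brings transferrin-bound iron into cells, stood at 124, 167 and 149 CPM in knockout, against 98.7, 129 and 148 CPM in wild type. The groups overlapped, and wild-type library 0 was the lowest of the 6. The log2 fold change was 0.23 ± 0.15 (95% confidence interval −0.098 to 0.55, edgeR unadjusted p = 0.150, adjusted p = 0.655). It was 0.082 without wild-type library 0 and 0.36 without wild-type library 2 (edgeR unadjusted p = 0.0316, adjusted p = 0.647), the extremes when a library was left out. Slc11a2 (DMT1), which moves iron out of endosomes, gave 0.089 ± 0.10, and also had its lowest level, 93.3 CPM, in wild-type library 0, against 111.7 to 125 CPM in knockout and 122 and 117 CPM in wild-type libraries 1 and 2. Without that library its log2 fold change was −0.021.

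Slc11a1 (NRAMP1), the metal transporter of macrophage phagosomes, had the most negative log2 fold change of the tested members. It had 28, 35 and 22 fragments in knockout, against 78, 48 and 27 in wild type. Scaled, these were 1.59, 2.33 and 1.19 CPM in knockout and 3.87, 2.28 and 1.75 CPM in wild type. Wild-type library 0 was the high one, and the groups overlapped. The log2 fold change was −0.66 ± 0.34 (95% confidence interval −1.43 to 0.11, edgeR unadjusted p = 0.0840, adjusted p = 0.607), and it was −0.28 without wild-type library 0 (edgeR unadjusted p = 0.407). Leaving out another library gave −0.94 at the other end, without knockout library 1 (edgeR unadjusted p = 0.0415, adjusted p = 0.998). All 11 tested macrophage markers had negative log2 fold changes as well, with a median of −0.36, and 0 were at 0 fragments in all libraries. Without wild-type library 0, 4 of the 11 were below 0 and 7 above, with a median of 0.11 (looked at after the data were seen), so their shared direction rests on that library. Among them, Lyz2, a lysozyme of macrophages, stood at 9.96, 22.9 and 20.3 CPM in knockout and 83.7, 14.0 and 14.1 CPM in wild type. Itgam stood at 1.48, 1.66 and 2.21 CPM in knockout and 4.515, 2.85 and 2.53 CPM in wild type. Csf1r stood at 49.2, 59.0 and 56.4 CPM in knockout and 61.2, 60.9 and 63.65 CPM in wild type. Itgam and Csf1r lay lower in knockout without overlap, as did 6.96% of all genes, while the groups overlapped for the other markers. The Slc11a1 difference did not pass adjustment and was smaller without wild-type library 0. In whole kidney, the number of macrophages and the Slc11a1 RNA in each cannot be told apart.

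Iron export and storage genes also differed little. Slc40a1 (ferroportin), the exporter of iron from cells, stood at 55.2, 55.6 and 51.6 CPM in knockout, against 59.3, 40.3 and 49.6 CPM in wild type. Wild type spanned the whole knockout range. The log2 fold change of Slc40a1 was 0.12 ± 0.12, and it depended on single wild-type libraries, being 0.27 without library 0 (edgeR unadjusted p = 0.0249, adjusted p = 0.409) and −0.0067 without library 1. Fth1, the ferritin subunit that oxidises iron, stood at 1289, 1454 and 1592 CPM in knockout, against 1531, 1405 and 1404 CPM in wild type. Knockout held both the lowest and the highest value, and the log2 fold change was −0.0015 ± 0.094 (95% confidence interval −0.21 to 0.21). Ftl1, the subunit that favours mineral formation, stood at 1968, 2119 and 1935 CPM in knockout, against 1846, 2132 and 2164 CPM in wild type. Here wild type held both extremes, and the log2 fold change was −0.028 ± 0.091.

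The ratio of Ftl1 to Fth1 in FPKM was 1.64, 1.51 and 1.32 in knockout and 1.31, 1.62 and 1.65 in wild type, with nearly the same range in both. Across libraries, Fth1 with Ftl1 gave r = −0.41 (exact permutation p = 0.418, adjusted p = 0.836; rho −0.60, exact permutation p = 0.242, adjusted p = 0.483). Tfrc with Fth1 gave r = 0.0063 (exact permutation p = 0.986, adjusted p = 0.986; rho 0.26, exact permutation p = 0.658, adjusted p = 0.878). With the 2 libraries farthest from the median of the first gene left out, r was −0.95 for Fth1 with Ftl1, 0.77 for Tfrc with Fth1 and −0.98 for Mt1 with Slc30a1. These 3 values rest on 4 libraries each and differ widely from those over all 6 libraries. On log2(FPKM + 1), the 2 farthest libraries on that scale were left out. There the sign of r turned for Fth1 with Ftl1, to 0.94. It did not turn for Tfrc with Fth1 (0.70) or for Mt1 with Slc30a1 (−0.71). The libraries left out were the same on both scales for Mt1 with Slc30a1 only.

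In a list of 32 other genes of iron uptake, export, storage and control, 30 were in the table and 25 were tested. Of these, 0 passed after adjustment, 1 stood at an unadjusted p under 0.05 higher in knockout (3.17% of all genes) and 1 lower (5.14%), and the median log2 fold change was −0.018. The lower one was Cybrd1, a ferric reductase, at 2.51, 1.99 and 2.10 CPM in knockout, against 2.88, 3.65 and 3.83 CPM in wild type, without overlap (log2 fold change −0.64 ± 0.20, edgeR unadjusted p = 0.00932, adjusted p = 0.599). The higher one was Ncoa4, the receptor that delivers ferritin for breakdown, at 325, 293 and 257.5 CPM in knockout, against 245, 261 and 254 CPM in wild type, with overlap (log2 fold change 0.20 ± 0.088, edgeR unadjusted p = 0.0444, adjusted p = 0.599).

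The 3 magnesium transporters of the Slc41 family had log2 fold changes above 0, of which those of Slc41a1 and Slc41a2 were too near 0 to hold a direction. Slc41a1 was at −0.012 with upper-quartile scaling and ranged from −0.046 to 0.050 when a library was left out, and Slc41a2 ranged from −0.060 to 0.12. The groups overlapped in each of the 3. Slc41a3, a magnesium transporter of mitochondria, had 75, 50 and 52 fragments in knockout, against 45, 71 and 30 in wild type. Scaled, these were 4.27, 3.32 and 2.80 CPM in knockout and 2.23, 3.37 and 1.95 CPM in wild type. Wild-type library 1 lay inside the knockout range. Its log2 fold change was 0.44 ± 0.25 (95% confidence interval −0.12 to 1.01, edgeR adjusted p = 0.626), and it ranged from 0.26 without knockout library 0 to 0.72 without wild-type library 1 (edgeR unadjusted p = 0.0176, adjusted p = 0.753). Slc41a1, a magnesium transporter of the plasma membrane, gave 0.0034, and Slc41a2 gave 0.03.

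In a list of 21 genes of magnesium and manganese handling, all were tested and 0 passed after adjustment. At an unadjusted p under 0.05 stood 2 that were higher in knockout (3.17% of all genes were) and 1 lower (5.14%). The median log2 fold change over the list was 0.03. The lower one was Cnnm1, of a family linked to magnesium transport, at 6.89, 6.58 and 6.25 CPM in knockout and 8.19, 10.5 and 9.47 CPM in wild type (log2 fold change −0.52 ± 0.13, edgeR unadjusted p = 0.00269, adjusted p = 0.599). The higher ones were Pcbd1, a cofactor of the transcription factor Hnf1 (0.18 ± 0.061, edgeR adjusted p = 0.599), and Mmgt1, a membrane magnesium transporter (0.19 ± 0.083, edgeR adjusted p = 0.599). Among 8 tested genes linked to zinc or metallothionein, 0 passed after adjustment, and 1 stood at an unadjusted p under 0.05 (8.31% of all genes did). It was the zinc enzyme Car2, at 338, 353 and 299.8 CPM in knockout and 282.5, 301 and 255 CPM in wild type (log2 fold change 0.24 ± 0.087, edgeR adjusted p = 0.599).

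The libraries differed in how often they held the extreme value of a member. Knockout library 1 was the highest of the 6 for 13 of the 32 tested members (40.6%, against 20.9% of all genes tested). Wild-type library 1 was the lowest for 11 members (34.4%, against 23.0%). Wild-type library 0 was the highest for 8 members and the lowest for 7. The median spread within groups was 0.14 for the members and 0.13 for all genes (SD, log2 scale).

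In the authors' deposited table of Cuffdiff comparisons, 32 members were tested and 0 were marked significant, beside 88 of 13404 genes (0.657%). In the authors' deposited table, 4 members (12.5%) had a p under 0.05, beside 7.39% of all genes tested there. They were Slc39a5 (p = 0.012, q = 0.410), Slc11a1 (p = 0.0148, q = 0.446), Slc41a3 (p = 0.0284, q = 0.549) and Slc39a11 (p = 0.0303, q = 0.566), by the authors' deposited table. Of these, Slc39a5 was also among the members at an unadjusted p under 0.05 by edgeR. Slc30a1, the other such member by edgeR, had p = 0.103 and q = 0.837 in the authors' Cuffdiff comparison.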

How the data were processed

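Total RNA of 6 right kidneys was sequenced with a stranded, ribosome-depleted kit, per the labels. Cufflinks 2.2.1, Cuffdiff, TopHat2 2.0.13, SAMtools 1.2, cutadapt 1.2.1, Bowtie2 2.2.3 and mm10 stand in the submitters' processing notes. For gene models, strand setting and multiply aligned fragments nothing is given in the sources used here, so overlapping genes and near-identical copies are uncertain.

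As estimated counts, the authors deposited fragments per gene and library, which are whole for every member. The authors also deposited FPKM per library, and a Cuffdiff comparison with a log2 fold change, a p-value and a q-value, per the file headers. The library numbers match no sample label. The labels call the samples biological replicates, and the variance between libraries of a group was 5.99 to 23.3 times that of counting. Within wild type it was 23.3 times for libraries 0 and 1, 18.4 times for 1 and 2, and 13.4 times for 0 and 2. By this measure over all genes, library 1 and not library 0 was the farther from the rest of its group. The table held 0 per-sample columns left unused.

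Estimated counts were rounded, filtered (filterByExpr) and TMM-scaled, and edgeR 4.0.16 in R 4.3.3 gave a two-sided quasi-likelihood F test of the 2 groups without covariates, adjusted by Benjamini-Hochberg over all genes tested. The test was first tried on simulated counts. Other settings tried were upper-quartile and RLE scaling, DESeq2 1.42.0, a filter of 1 CPM in 3 libraries or none, limma-voom (limma 3.58.1), limma on log2(FPKM + 1) and log2(FPKM + 0.1), and leaving out each library. Relations used log2 CPM with a prior count of 2 and two-sided exact permutation tests in scipy 1.17.1. Promoter windows are from RefSeq and stem-loops from GENCODE transcripts.

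The members and lists were chosen with earlier results of these data known. Values in every library are given for Mt1, Mt2, Mtf1, Tfrc, Fth1, Ftl1, the 8 tested members with the smallest p and the 6 with the highest FPKM, and for up to 3 genes of each pathway list by p. Other library values (Slc40a1, Slc11a2, Slc39a14, Slc39a9 and the untested members) were chosen after they were seen. A result for 1 list gene is not reported here.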

Additional observations from a re-analysis of the deposited data

How the results depend on the processing

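No member was called under any alternative. Over all genes, 0 were called, against 1 with no filter and 13 with DESeq2, and 0 to 1 when a library was left out. Members at an unadjusted p under 0.05 numbered 2, and 2 to 5 when a library was left out: 5 with wild-type library 0 left out (11.2% of all genes then), and 4 with knockout library 0 (8.75%) or wild-type library 2 (7.54%) left out. With no filter there were 3 (7.55% of all genes) and with DESeq2 3 (5.59%). Slc30a1 was among them under every alternative, and Slc39a5 under every one except those that left out knockout library 1 or wild-type library 1. The median log2 fold change of the members stayed between 0.016 and 0.055 when a library was left out.

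Log2 fold changes near 0 turned sign. Fth1 was 0.0031 with RLE scaling and with DESeq2, 0.0019 with no filter and 0.077 with limma on either log2 FPKM scale, where Ftl1 was 0.047 and Slc31a1 was −0.0015. With a library left out, Fth1 ranged from −0.074 to 0.075, Ftl1 from −0.097 to 0.013, Mt2 from −0.21 to 0.068 and Mtf1 from −0.079 to 0.089. On log2(FPKM + 1), r was 0.45 for Mt1 with Slc30a1 and −0.12 for Tfrc with Fth1. The cause was not tested. The other 193 values of members described in full kept their direction, and no adjusted p of a member came under 0.05 in any setting. At an unadjusted p of 0.05, Mt1, Slc11a1, Slc30a4, Slc39a5, Slc39a11, Slc40a1, Slc41a3 and Tfrc changed side in an alternative setting. No paired analysis was possible because the numbers of the libraries in the deposited table match no sample label. Depth limits the 6 untested members, and 3 mice per group limit all comparisons. Slc11a1 and Slc41a3 had few fragments and also a wide spread within groups (SD 0.51 and 0.35 on the log2 scale).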
